A study of Rattus norvegicus with 22 samples.

Results

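The nephron transcription factors described here are Hnf4a, Pax2, Pax8, Lhx1, Tfap2b, Emx1, Sall1 and Grhl2 (8 genes), chosen by name as factors that shape the nephron. In the kidney RNA sequencing tables of 22 rats, 7 of these 8 were listed among 17334 genes by their Entrez identifiers (Hnf4a 25735, Pax2 293992, Pax8 81819, Lhx1 257634, Tfap2b 301285, Sall1 307740, Grhl2 299979). Emx1 was not analysed here, and neither was Pkhd1. All 7 listed members passed the filter on low counts and were among the 12867 genes tested. The level of each was read from the deposited TPM values (transcripts per a fixed total, a level corrected for transcript length), and differences between groups were tested on the deposited estimated counts. A difference is given as a log2 fold change between groups of counts scaled to the library total (CPM), unless a sentence says otherwise.

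All 22 animals were male PKD/Mhm (Cy/+) rats of 8 months, so the missense mutation in Anks6 that gives this strain its cysts was shared by the untreated group and the treated groups, and healthy rats were not part of the data. The untreated group had 6 rats, the group given human adipose-derived stromal cells into the peritoneum (i.p. ASC) had 6, the group given them into a vein (i.v. ASC) had 6, and the group given conditioned medium (CM) had 4, with monthly treatment over 6 months. The labels name the medium as CM alone, and the study's texts give different routes for it. Rats are numbered within their group in the order of deposit. Total counts per rat ran from 12195682 to 14734772. The RNA came from the left kidney, in which Umod of the thick limb (1730 TPM), Aqp2 of the collecting duct (763 TPM), Nphs1 of the podocyte (28.6 TPM) and the injury marker Havcr1 (97.5 TPM) were present in untreated rats on average. The summed level of 6 urothelial markers, the uroplakins among them, was 2.10 to 16.8 TPM in untreated, i.p. ASC and CM rats, and 2.71 to 547 TPM with a median of 75.2 TPM in i.v. ASC rats. Upk1b alone averaged 0.998 TPM in untreated and 15.4 TPM in i.v. ASC rats, and values of the i.v. group are therefore also given without the 3 rats with the highest urothelial score, all of them i.v. ASC rats. This did not remove all urothelial RNA. Without them all 6 markers were still higher for i.v. ASC than in untreated rats (median log2 1.032), beside 6389 of all 12867 genes. The i.v. rat 4, which was kept, had a score of 1.658, and the highest outside the i.v. group was 1.037.

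A nephron is laid down by transcription factors that act in sequence and then persist in some segments of the adult tubule. Pax2 and Pax8 are paired-box factors that set up the kidney lineage, Sall1 is a zinc finger protein of the nephron progenitors, and Lhx1 is a LIM-homeodomain factor needed for the nephric duct and for the patterning of the early nephron. Hnf4a, a nuclear receptor, drives the maturation of the proximal tubule, and one of the genes typical of that segment is Slc34a1, the sodium-phosphate cotransporter of the brush border. Tfap2b, an AP-2 factor, acts in the distal nephron, and Grhl2, a grainyhead factor, maintains the epithelial barrier of the collecting duct. In RNA of a kidney, fewer cells of a segment and less RNA per cell of that segment cannot be told apart.

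The upstream sequence of Slc34a1 is shown because its level is compared with that of Hnf4a over rats further on, and because HNF4 proteins are known to bind short, defined letters. RefSeq gives the 250 bases before its start at chr17:9238984-9239233 on the minus strand of the rat assembly GRCr8. They are written 5′ to 3′ in the direction of the gene, in lower case, and capitals mark the HNF4 core CAAAGTC (reverse complement GACTTTG).
Slc34a1: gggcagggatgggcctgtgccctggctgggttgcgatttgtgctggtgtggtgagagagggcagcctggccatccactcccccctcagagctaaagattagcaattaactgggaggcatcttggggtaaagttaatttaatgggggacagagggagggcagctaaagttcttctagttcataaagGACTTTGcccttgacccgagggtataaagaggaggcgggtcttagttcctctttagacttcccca
The Slc34a1 window held 1 HNF4 core, at 65 bases before the start and on the opposite strand. Of all 33469 windows of this length, 3.95% held it on either strand. It was not found in the windows of the 2 listed starts of Hnf4a, nor in those of Pax2, Pax8 and Lhx1, whose GC contents were 71.2%, 60.8% and 63.2% against a median of 51.2% over all windows. These matches describe letters only, and no binding was measured.

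The members differed widely in level. Over the 22 rats, mean TPM fell in the order Pax8 114, Hnf4a 105, Pax2 36.0, Sall1 27.6, Tfap2b 26.4, Lhx1 18.2 and Grhl2 7.25. Pax8 lay above Hnf4a in 14 of 22 rats, and Sall1 above Tfap2b in 15 of 22, so the order within these pairs of neighbours was not kept from rat to rat. Every other neighbour was in this order in 21 or 22 of the 22 rats. The members also differed in how much they varied between rats, and here Hnf4a stood out. Its SD over rats was 0.701 on the log2 CPM scale, larger than that of 93.8% of the genes tested, while the SD of Pax8, at 0.139, was larger than that of only 23.2%. Lhx1 had an SD of 0.386, and Grhl2, Pax2, Sall1 and Tfap2b lay between 0.287 and 0.248, near the 0.23 of the median gene.

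**Figure D1:**
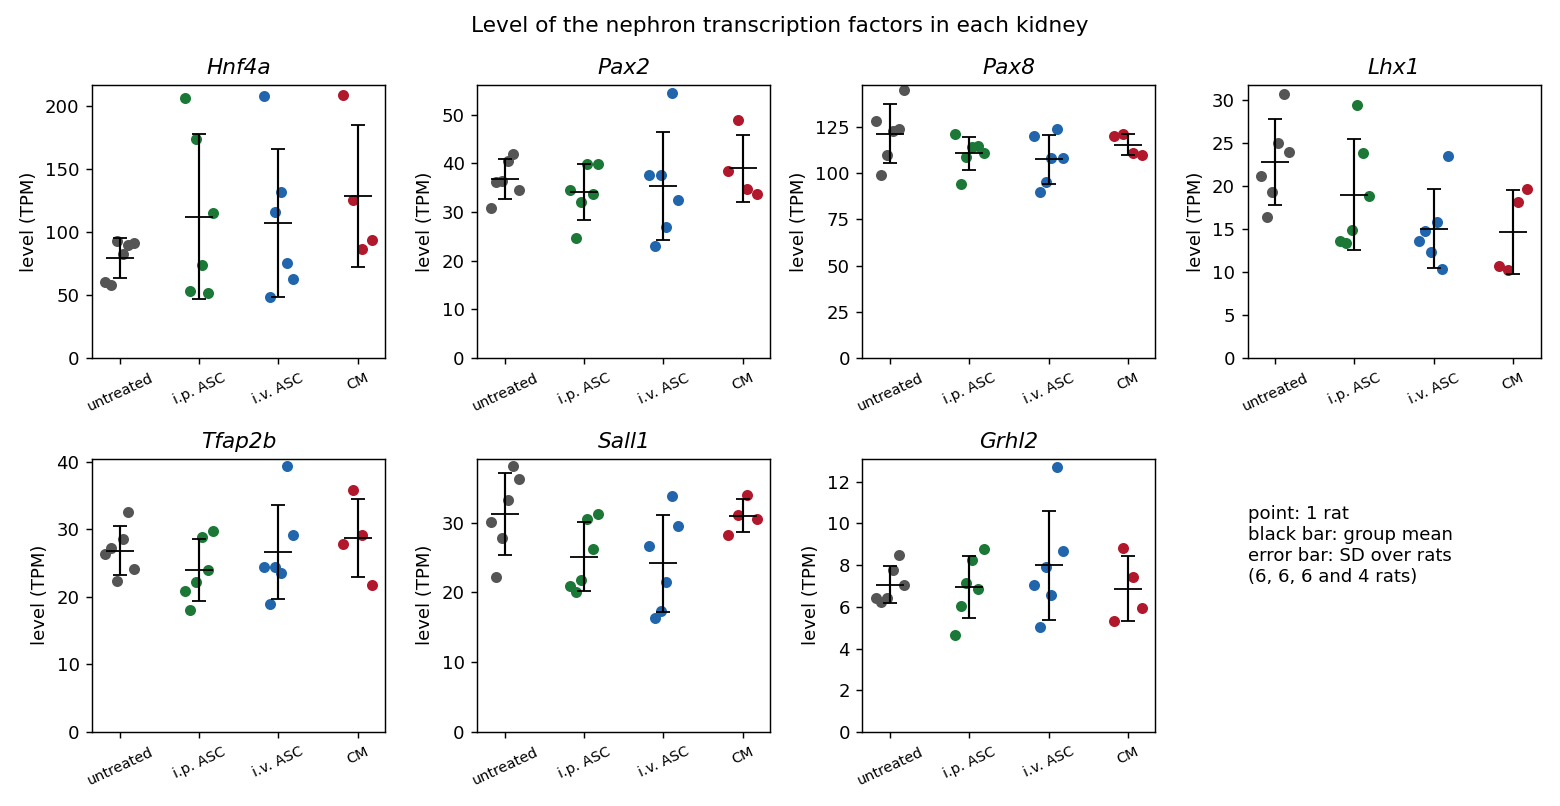
TPM of the 7 listed members in each of the 22 rats, 1 point per rat, by treatment group, with the mean and SD of the group. Hnf4a spreads from 48.8 to 209 TPM, with its highest rats in the 3 treated groups, while Pax8 stays between 89.9 and 145 TPM in all rats.

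None of the 7 members passed the threshold in any comparison. In the quasi-likelihood test of edgeR, with p-values adjusted over all genes by the Benjamini-Hochberg method, 0.0% of the genes tested passed at an adjusted p of 0.05 for i.p. ASC, i.v. ASC and CM against untreated rats and for i.p. against i.v. ASC, so the members were not set apart from other genes by this. DESeq2, run on the same rounded counts, called 0.0%, 0.183%, 0.0262% and 0.157% of genes in these comparisons, which are 0, 28, 4 and 24 genes and no member. At an unadjusted p under 0.05, edgeR gave 3.89%, 8.81%, 6.6% and 2.18% of genes (500, 1133, 849 and 281). By that measure the members numbered 0 of 7 for i.p. ASC, 2 of 7 for i.v. ASC (Lhx1 and Sall1), 1 of 7 for CM (Lhx1) and 0 of 7 between the ASC routes. In a test of all 4 groups together, edgeR called 0.0855% of genes (11) at the adjusted threshold and 4.11% (529) at an unadjusted p under 0.05, and DESeq2 called 0.3% (44 of 14678). No member was among those called, and Lhx1 had the smallest p of the members in that test (edgeR adjusted p = 0.912). The 3 comparisons with untreated rats share the same 6 controls, so their values are set side by side and not counted as repeats of each other.

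**Figure D2:**
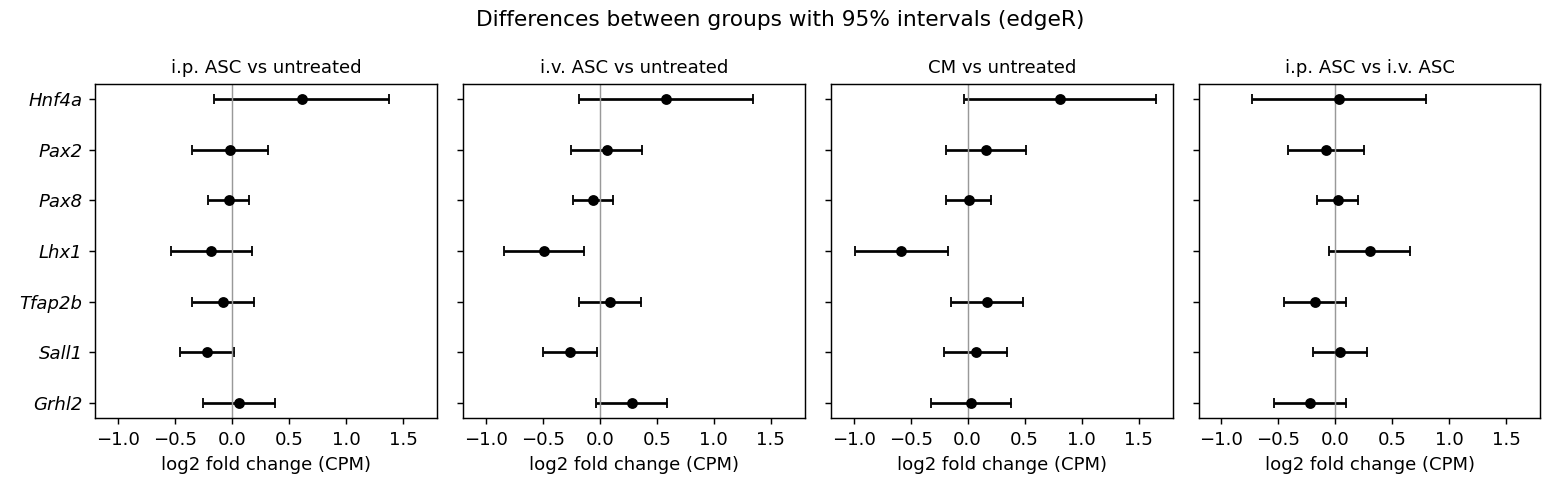
Log2 fold change of each listed member in the 4 comparisons (x axis, log2 CPM scale) from edgeR, with 95% intervals. The widest intervals belong to Hnf4a, and those of Lhx1 for i.v. ASC and CM lie below 0 before adjustment, while no adjusted p passed 0.05.

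Hnf4a, the receptor of the proximal tubule, was the most variable member. Untreated rats ranged from 58.3 to 93.3 TPM with a median of 86.3 TPM (79.3 ± 15.9 TPM, SD, n = 6). The i.p. ASC rats ranged from 51.8 to 207 TPM with a median of 94.4 TPM (113 ± 65.4, SD, n = 6). The i.v. ASC rats ranged from 48.8 to 208 TPM with a median of 95.9 TPM (107 ± 58.8, SD, n = 6). In both ASC groups 3 of 6 rats lay above every untreated rat, while 2 i.p. and 1 i.v. rats lay below every untreated rat, so these groups were spread on both sides of the controls. The 4 CM rats had 209, 126, 86.4 and 93.7 TPM. All 4 CM rats were above the untreated mean and 3 were above the highest untreated rat. The log2 fold change against untreated rats was 0.61 (SE 0.39) for i.p. ASC, 0.58 (SE 0.39) for i.v. ASC and 0.81 (SE 0.43) for CM, with 95% intervals of -0.15 to 1.37, -0.18 to 1.34 and -0.03 to 1.64. The edgeR adjusted p-values were 0.771, 0.547 and 0.711. The ASC routes differed by 0.03 (SE 0.39, 95% interval -0.72 to 0.79), a value that turned to -0.26 without i.p. rat 1. Without the 3 rats with the highest urothelial score (i.v. rats 1, 3 and 5), the i.v. difference of Hnf4a from untreated rats was 0.09 in place of 0.58 (edgeR adjusted p = 0.998), and the routes differed by 0.55 in place of 0.03 (edgeR adjusted p = 0.969). With the score of proximal tubule markers in the fit, the Hnf4a differences from untreated rats were 0.09, 0.21 and 0.28.

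The 3 rats with the most Hnf4a, 1 in each treated group, carried the lowest numbers of their groups in the sample labels (5, 3 and 2), and the meaning of that number is not given in the labels. This was noticed after the values were seen. Among the 11 rats with the lower numbers (1 to 12) Hnf4a was 127 ± 65.4 TPM (SD, n = 11), and among those with the higher numbers (13 to 24) it was 83.3 ± 16.9 TPM (SD, n = 11). Within the lower numbers the Hnf4a log2 differences of the treated groups from untreated rats were 1.18 (i.p. ASC, 3 rats against 2), 1.05 (i.v. ASC, 4 against 2) and 1.56 (CM, 2 against 2). Within the higher numbers they were -0.19 (3 against 4), -0.38 (2 against 4) and 0.01 (2 against 4). A direction of Hnf4a therefore held in the lower numbers and not in the higher ones, and sets of rats this small were not tested. With the number as a covariate the differences were 0.18, 0.07 and 0.44. Across all genes 13.3% (1707) changed with the label number at an adjusted p of 0.05 in edgeR, with group in the fit. Hnf4a was not one of these (log2 -1.14 over the whole range of 23 numbers, adjusted p = 0.123), and no other listed member was either.

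Pax8, which is needed for the earliest kidney tissue together with Pax2, was the steadiest member. It ranged from 98.8 to 145 TPM in untreated rats (median 123), from 94.2 to 121 TPM after i.p. ASC (median 113) and from 89.9 to 124 TPM after i.v. ASC (median 108). In the CM rats it was 120, 121, 111 and 110 TPM. The groups overlapped throughout. Its log2 fold changes of -0.03, -0.06 and 0.01 had SEs of 0.09, 0.09 and 0.10, with 95% intervals of -0.20 to 0.14, -0.22 to 0.11 and -0.18 to 0.20. The edgeR adjusted p-values were 0.931, 0.793 and 0.997, and the CM value turned to -0.06 on the log2(TPM + 1) scale. The i.v. value of Pax8 was -0.18 without the 3 rats with the highest urothelial score.

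Pax2 was lower in level and spread further. Its range was 30.8 to 42.0 TPM in untreated rats (median 36.3), 24.6 to 39.9 TPM after i.p. ASC (median 34.1) and 23 to 54.5 TPM after i.v. ASC (median 35), where i.v. rat 2 was the lowest and i.v. rat 5 the highest of all 22 rats. The CM rats had 38.5, 48.8, 34.8 and 33.7 TPM. The log2 fold changes of Pax2 were -0.02 (SE 0.17), 0.06 (SE 0.16) and 0.16 (SE 0.18) for i.p. ASC, i.v. ASC and CM, with edgeR adjusted p-values of 0.982, 0.894 and 0.902. The direction for i.v. ASC rested on the scale and on the rats, since it was -0.10 on the log2(TPM + 1) scale and -0.33 without the 3 rats with the highest urothelial score.

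In the edgeR test of all rats without a covariate, Lhx1 had the smallest p of the members against untreated rats, for i.v. ASC and for CM. Untreated rats ranged from 16.4 to 30.7 TPM with a median of 22.6 TPM (22.8 ± 4.98, SD, n = 6). After i.p. ASC the range was 13.4 to 29.4 TPM with a median of 16.9 TPM (19 ± 6.46, SD, n = 6). After i.v. ASC it was 10.4 to 23.5 TPM with a median of 14.2 TPM (15.1 ± 4.55, SD, n = 6). Of the i.v. rats 5 of 6 lay below every untreated rat, against 3 of 6 i.p. rats. The 4 CM rats had 10.7, 10.2, 18.2 and 19.6 TPM, and 2 of these were below every untreated rat. The log2 fold changes were -0.18 (SE 0.18, 95% interval -0.54 to 0.17), -0.49 (SE 0.18, 95% interval -0.84 to -0.13) and -0.58 (SE 0.21, 95% interval -0.98 to -0.17). In edgeR's test the unadjusted p-values were 0.32, 0.0144 and 0.0109, and the adjusted p-values 0.816, 0.523 and 0.711. Over the alternatives run, the adjusted p of Lhx1 lay between 0.236 and 1.0 for i.v. ASC and between 0.407 and 1.0 for CM, so Lhx1 did not pass the threshold in any of these settings. The ASC routes differed by 0.30 (SE 0.18, 95% interval -0.06 to 0.66) with an edgeR adjusted p of 1.0.

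The podocyte markers moved with Lhx1. The summed level of 6 podocyte markers, all of them listed and none at 0 in all rats of a group, was 172 to 386 TPM in untreated rats (median 238), 130 to 309 after i.p. ASC (median 187), 62.3 to 313 after i.v. ASC (median 114) and 58.5 to 327 after CM (median 140). Over the 22 rats Lhx1 correlated with the podocyte marker score, the mean log2 CPM of these genes, at r = 0.869 and rho = 0.902 (permutation p = 1e-05 for each, the smallest that 100000 permutations can give, and 0.00021 adjusted over 42 pairs of members and scores). Without CM rat 1 and i.v. rat 1, the rats farthest from the median score, r was 0.879. Within groups r was 0.786 in untreated rats, 0.963 after i.p. ASC and 0.803 after i.v. ASC, and within the lower and the higher label numbers it was 0.810 and 0.845. With the podocyte score as a covariate, the Lhx1 differences were -0.06, -0.13 and -0.27, with unadjusted edgeR p-values of 0.584, 0.302 and 0.0555. The podocyte score itself differed from untreated rats by -0.970 on the log2 scale after i.v. ASC (exact permutation p = 0.0346, 0.277 adjusted over 24 tests). Lhx1 also differed by label number, with 14.3 ± 3.02 TPM in the lower 11 numbers and 22.1 ± 5.66 TPM in the higher 11. The edgeR slope over numbers was 0.62 over the whole range (edgeR adjusted p = 0.0511), and the markers were lower in the lower numbers too (Nphs1 16.4 ± 5.29 against 28.1 ± 8.26 TPM). Within the lower numbers the Lhx1 log2 differences for i.p. ASC, i.v. ASC and CM were -0.29, -0.30 and -0.73, and within the higher ones -0.02, -0.60 and -0.37. With the number as a covariate they were -0.05, -0.29 and -0.51, with unadjusted edgeR p-values of 0.765, 0.0903 and 0.00911. Without the 3 rats with the highest urothelial score, the i.v. difference was -0.26. These rats also had the lowest podocyte scores of the i.v. group (4.402, 4.499 and 4.709, beside 5.467 to 6.395 in the others). A low podocyte score and much urothelial RNA thus fell on the same i.v. rats and cannot be told apart there. The part of podocyte content, label number and urothelial RNA in the Lhx1 differences was not tested beyond these values.

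**Figure D3:**
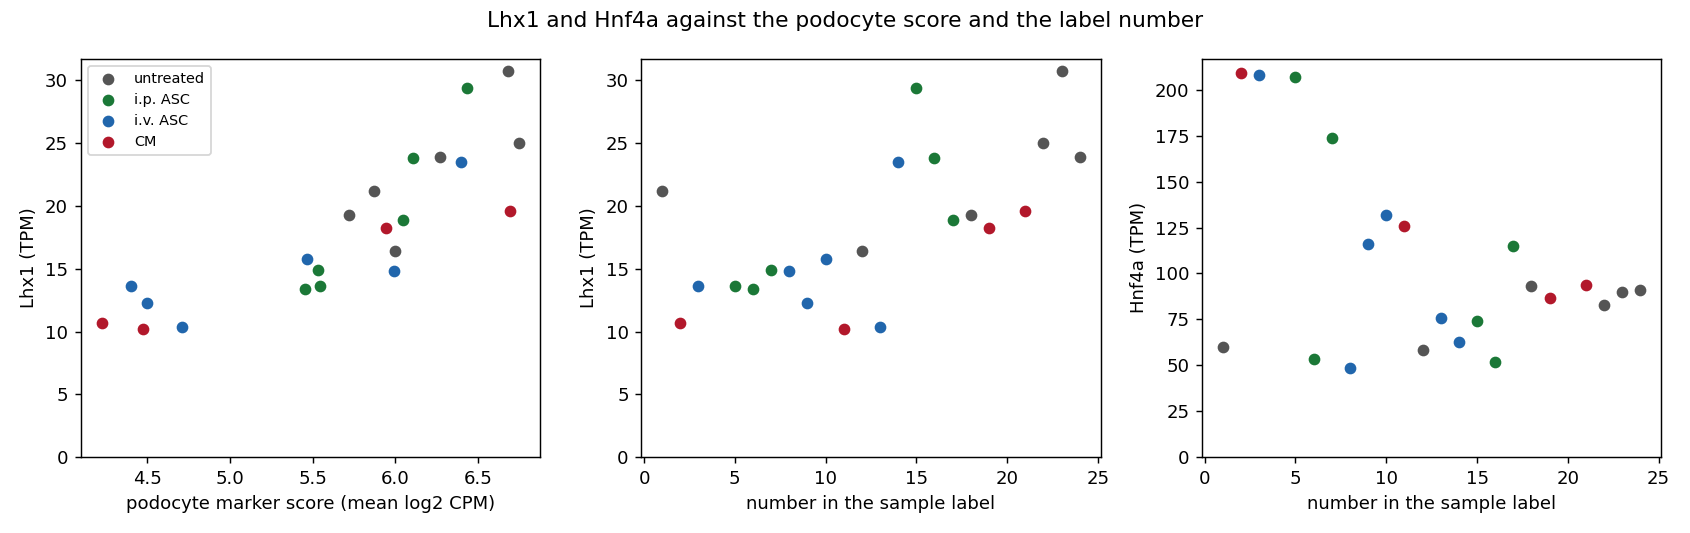
Each point is 1 rat, coloured by group. Lhx1 is plotted in TPM against the podocyte marker score (mean log2 CPM) and against the number in the sample label. Hnf4a is plotted in TPM against that number. Lhx1 rises with the podocyte score, where r = 0.869 was computed with Lhx1 in log2 CPM. The highest Hnf4a values lie at low numbers.

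Sall1, the progenitor factor, was the other member with a p under 0.05 for i.v. ASC before adjustment. It ranged from 22.2 to 38.1 TPM in untreated rats (median 31.7), from 20 to 31.3 TPM after i.p. ASC (median 24) and from 16.4 to 33.8 TPM after i.v. ASC (median 24.1). In each ASC group 3 of 6 rats lay below every untreated rat. The CM rats, at 28.3, 31.1, 34.0 and 30.6 TPM, lay within the untreated range. The log2 fold changes were -0.22 (SE 0.12, 95% interval -0.47 to 0.02) for i.p. ASC, -0.26 (SE 0.12, 95% interval -0.51 to -0.02) for i.v. ASC and 0.07 (SE 0.14, 95% interval -0.20 to 0.34) for CM. Their edgeR p-values were 0.0848, 0.0453 and 0.636 before adjustment and 0.771, 0.523 and 0.963 after it. Without the 3 rats with the highest urothelial score the i.v. value was -0.43, with an unadjusted edgeR p of 0.00197, beside 0.221 for Lhx1. In that setting 0 of the 12867 genes passed after adjustment. Within the lower label numbers the Sall1 values were -0.20, -0.23 and 0.31, and within the higher ones -0.16, -0.11 and -0.06.

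Tfap2b and Grhl2, the members of the distal nephron and the collecting duct, showed no difference larger than the spread between rats. Tfap2b ranged from 22.3 to 32.6 TPM in untreated rats (median 26.8), from 18.1 to 29.8 TPM after i.p. ASC (median 23.1) and from 19 to 39.4 TPM after i.v. ASC (median 24.4), with 27.9, 35.9, 29.1 and 21.8 TPM in the CM rats. Its log2 fold changes were -0.08 (SE 0.14), 0.09 (SE 0.14) and 0.17 (SE 0.16), with edgeR adjusted p-values of 0.888, 0.788 and 0.865, and the i.v. value was -0.03 on the log2(TPM + 1) scale and -0.12 without the 3 rats with the highest urothelial score. Grhl2 was the lowest member in level and the 3 treated groups overlapped the controls on both sides. It ranged from 6.24 to 8.47 TPM in untreated rats (median 6.74), from 4.64 to 8.76 TPM after i.p. ASC (median 6.99) and from 5.02 to 12.7 TPM after i.v. ASC (median 7.48), with 5.32, 8.83, 7.42 and 5.94 TPM in the CM rats. Its log2 fold changes were 0.06 (SE 0.16), 0.28 (SE 0.16) and 0.03 (SE 0.18), with edgeR adjusted p-values of 0.935, 0.529 and 0.993, and on the log2(TPM + 1) scale the i.p. and CM values were -0.04 and -0.05. For i.v. ASC the Grhl2 value was -0.03 in place of 0.28 without the 3 rats with the highest urothelial score. In i.v. rat 5, Pax2, Tfap2b and Grhl2 were each at their highest of the 22 rats, and in i.v. rat 2, Hnf4a, Pax2, Pax8 and Sall1 were each at their lowest. Between i.p. and i.v. ASC rats the log2 differences were -0.08 for Pax2, 0.02 for Pax8, 0.04 for Sall1, -0.18 for Tfap2b and -0.22 for Grhl2, each with an edgeR adjusted p of 1.0. Without the same 3 rats these route differences were 0.33, 0.16, 0.22, 0.05 and 0.10, and that of Lhx1 was 0.09.

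Hnf4a and its close relative Hnf4g were compared with Slc34a1 over all 22 rats, as TPM and in 2 pairs, which answers whether a proximal tubule factor and a proximal transporter vary together. Slc34a1 ranged from 227 to 1400 TPM. Hnf4a correlated with it at r = 0.816 and rho = 0.815, with permutation p-values of 1e-05 and 2e-05 (1e-05 and 4e-05 adjusted over the 2 pairs). Without i.p. rat 1 and i.v. rat 1, the rats farthest from the median of Slc34a1, r was 0.717 (permutation p = 0.00017). Within groups r was 0.654 in untreated rats (exact permutation p = 0.171), 0.960 after i.p. ASC (exact permutation p = 0.00417) and 0.954 after i.v. ASC (exact permutation p = 0.0153). The relation was therefore seen within both ASC groups and not shown in the 6 untreated rats alone. Among rats of the lower and the higher label numbers r was 0.960 and 0.722 (n = 11 each, permutation p = 6e-05 and 0.0112).

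Hnf4g ranged from 1.70 to 14.6 TPM and correlated with Slc34a1 at r = 0.805 and rho = 0.783, with permutation p-values of 1e-05 and 7e-05 (the same after adjustment), and at 0.736 without the same 2 rats. Within groups its r was 0.44 in untreated rats (exact permutation p = 0.381), 0.917 after i.p. ASC and 0.945 after i.v. ASC (exact permutation p = 0.00278 and 0.0139). As with Hnf4a, the relation was seen within both ASC groups and not shown in the untreated rats alone. Among rats of the lower and the higher label numbers it was 0.947 and 0.586 (n = 11 each, permutation p = 3e-05 and 0.0586).

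**Figure D4:**
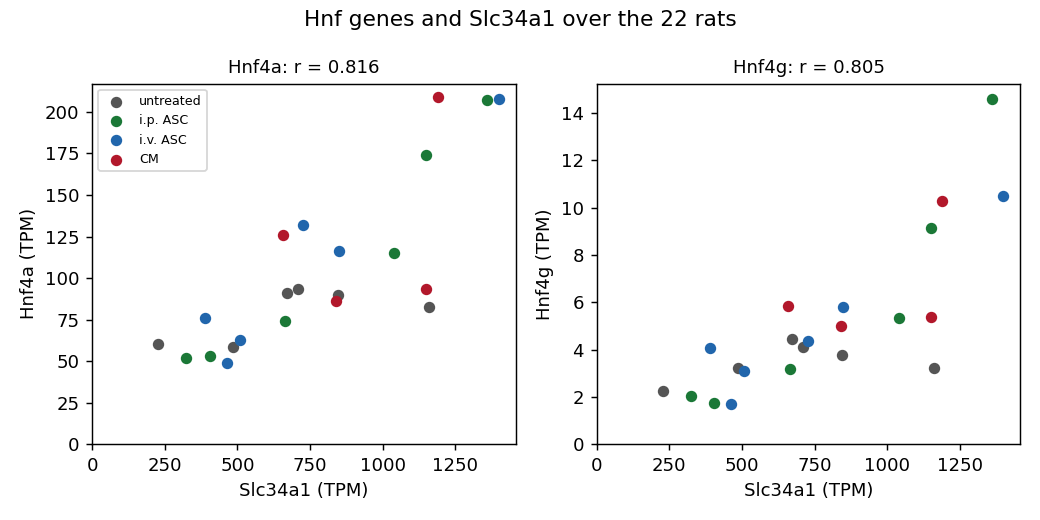
TPM of Hnf4a and of Hnf4g against TPM of Slc34a1, 1 point per rat and coloured by group. Both rise with Slc34a1, at r = 0.816 and 0.805 over 22 rats.

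Hnf4g gave no call in the group comparisons. At 2.23 to 4.47 TPM in untreated rats and 5.01 to 10.3 TPM in CM rats, it did not overlap between these groups, as was so for 0.264% of the genes tested (34 of 12867) in the same direction. The log2 difference was 1.02 (SE 0.53, edgeR adjusted p = 0.711), and 0.37 with the podocyte score in the fit. For i.p. ASC it was 0.91 (SE 0.48, edgeR adjusted p = 0.771), and for i.v. ASC 0.62 (SE 0.48, edgeR adjusted p = 0.586), with rats on both sides of the untreated range. The i.v. value was -0.13 without the 3 rats with the highest urothelial score, and with the proximal tubule score in the fit the Hnf4g values for i.p. ASC, i.v. ASC and CM were 0.16, 0.23 and 0.39.

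Members were next set against marker scores of 6 segments or cell types over the 22 rats, in 42 pairs, of which 5 passed the adjusted threshold. Hnf4a followed the proximal tubule score of 20 markers at r = 0.877 and rho = 0.905 (adjusted permutation p = 0.00021), and at 0.859 without i.v. rat 1 and untreated rat 1. It was 0.909, 0.961 and 0.911 within untreated, i.p. and i.v. ASC rats, so that here the untreated group showed the relation as well. Grhl2 followed the collecting duct score of 15 markers at r = 0.753 (adjusted permutation p = 0.00168), a value of 0.590 without i.v. rats 3 and 5 that no longer passed adjustment (adjusted permutation p = 0.0839). Within untreated, i.p. and i.v. ASC rats this r was 0.512, 0.796 and 0.825 (exact permutation p = 0.319, 0.0917 and 0.0347). Taken singly, 5 of the 15 markers had an r over 0.5 with Grhl2, beside 2.6% of all genes. Their median r was 0.252, beside 0.001 over all genes, and the lowest was -0.234. With the urothelium score Grhl2 had r = 0.549, which did not pass (adjusted permutation p = 0.0727). The urothelium scores of i.v. rats 3 and 5 were high as well, at 5.88 and 3.782. Pax2 ran against the tubular injury score at r = -0.633 (adjusted permutation p = 0.0172) and Hnf4a against the podocyte score at r = -0.616 (adjusted permutation p = 0.021). Without the 2 farthest rats these were -0.434 and -0.425 and did not pass (adjusted permutation p = 0.241 for both), nor did they pass on the log2(TPM + 1) scale (r = -0.553 and -0.519, adjusted permutation p = 0.0553 and 0.0849). Pax2 ran against the injury score within each group of 6 as well, at r = -0.926 in untreated rats (exact permutation p = 0.00139), -0.823 after i.p. ASC (exact permutation p = 0.0514) and -0.677 after i.v. ASC (exact permutation p = 0.146). Hnf4a and the podocyte score gave 0.166, -0.484 and -0.764 in these groups (exact permutation p = 0.71, 0.307 and 0.0847). The pairs that passed both with and without the 2 farthest rats were Hnf4a with the proximal tubule and Lhx1 with the podocyte.

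Among themselves, the members formed 21 pairs, of which 6 passed. Pax2 and Tfap2b were the closest pair, at r = 0.856 and rho = 0.773 (adjusted permutation p = 0.00021 and 0.00147), and at 0.790 without i.v. rats 2 and 5. The others were Tfap2b with Grhl2 (r = 0.737), Pax2 with Grhl2 (0.624), Hnf4a with Pax8 (0.614), Pax2 with Pax8 (0.551) and Pax2 with Sall1 (0.520), and none of these passed without the 2 farthest rats. On the log2(TPM + 1) scale Hnf4a with Pax8 was 0.299 and did not pass (adjusted permutation p = 0.309). Lhx1 had negative values with Hnf4a (r = -0.489), Pax2 (-0.450) and Tfap2b (-0.408) that did not pass.

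**Figure D5:**
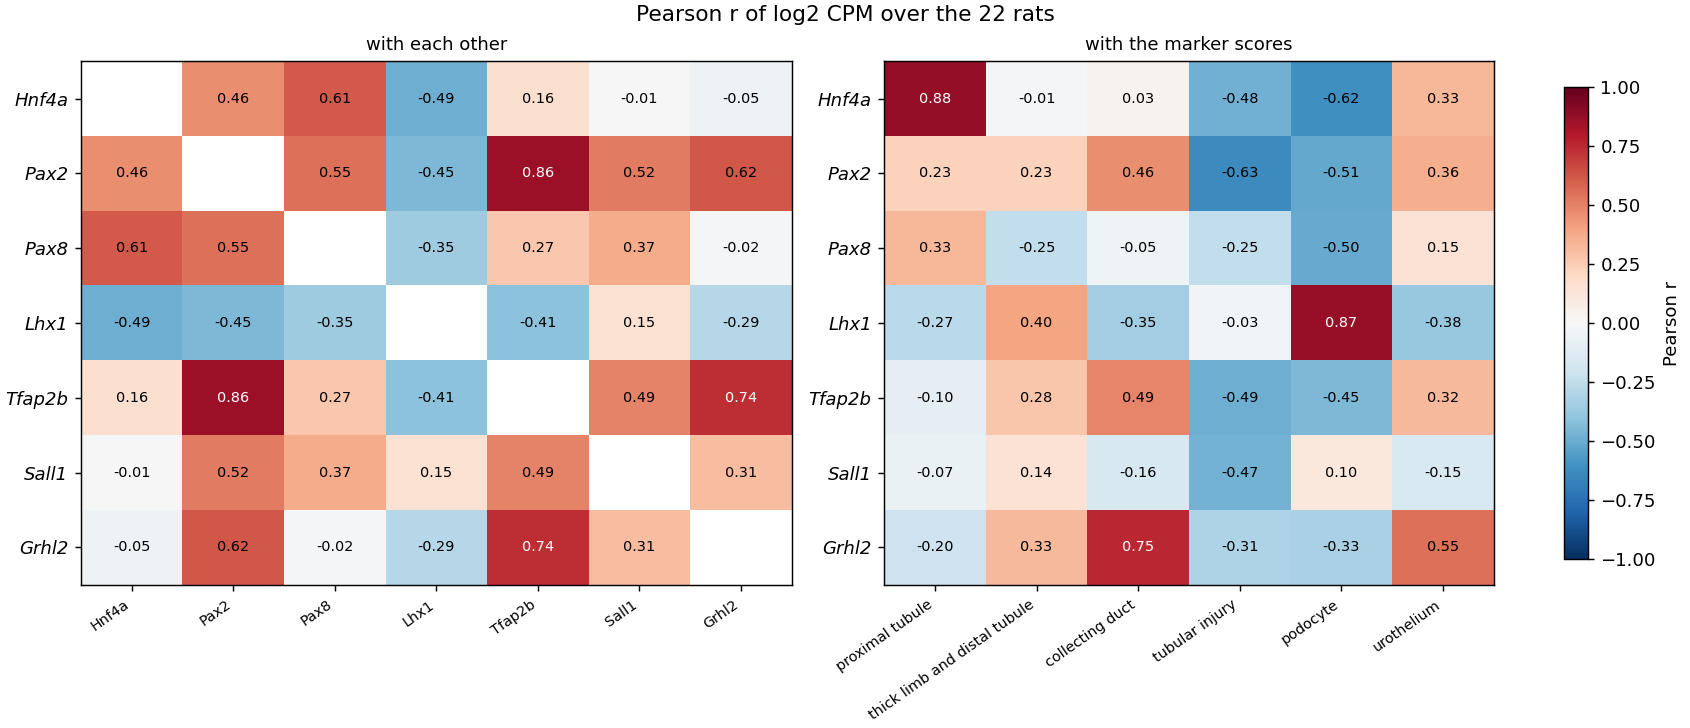
Pearson correlation over 22 rats of the 7 listed members with 6 marker scores and with each other (log2 CPM), where colour gives r from -1 to 1. The strongest cells are Hnf4a with the proximal tubule score (0.877), Lhx1 with the podocyte score (0.869) and Pax2 with Tfap2b (0.856).

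The genes whose log2 CPM over the 22 rats was most like each member are given as a description, since all points share the same libraries. Hnf4a was most like Aco1, the cytosolic aconitase (r = 0.987), Ddah1, which breaks down methylated arginines (0.985), and Agxt2, a mitochondrial aminotransferase (0.984). Of the other 12866 genes, 8.53% had an r of at least 0.8 with it, against 0.894% for Lhx1 and 0.124% or less for each of the other 5 members. Of the 20 proximal tubule markers, 13 had an r over 0.5 with Hnf4a and the median was 0.823, beside 20.4% and -0.109 over all genes. The uptake receptor Lrp2 was highest at 0.979, while the lactate transporter Slc5a12 and the glucose transporter Slc5a2 ran the other way, at -0.492 and -0.481. The latter 2 genes, typical of the early proximal tubule, had values of 0.815 and 0.807 with Lhx1. Most of the 20 proximal tubule markers ran the other way with Lhx1. Their median r with it was -0.327, 7 of 20 were above 0, and the lowest was -0.73.

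Lhx1 was most like Slit2, a guidance ligand (r = 0.934), Prps2, an enzyme of nucleotide synthesis (0.927), and Sall3, a relative of Sall1 (0.923). Its r with the 6 podocyte markers ran from 0.793 to 0.871, and all 5 endothelial markers were over 0.5 with a median of 0.778. Over all genes 14.7% were over 0.5 with Lhx1 and the median was 0.057. Of the 12 markers of the thick limb and distal tubule, 6 were over 0.5 with a median of 0.572, led by the kinase Wnk1 (0.875), the calcium-binding protein Calb1 (0.856) and the sodium-chloride cotransporter Slc12a3 (0.848), while Cldn10, a claudin of the thick limb, was lowest at -0.772. Some markers of the distal tubule thus lay as high as those of podocyte and endothelium, while the score over the 12 had an r of 0.398 with Lhx1 that did not pass (adjusted permutation p = 0.187). Tfap2b was most like Scin, an actin-severing protein (0.923), Klhl14 (0.891) and Klhdc8a (0.872), and Pax2 was most like Lrrc66 (0.878), the distal nephron factor Pou3f3 (0.869) and Epb41l1 (0.867). Grhl2 was most like Cgnl1, a protein of cell junctions (0.818), Sorl1, a sorting receptor (0.816), and Scin (0.804). Esrp1, an epithelial splicing factor, had an r of 0.793 with Grhl2, 0.821 with Tfap2b and 0.680 with Pax2. It was the highest of the 6 genes listed as controlled by Grhl2, whose median r with Grhl2 was 0.233, with 2 of 6 over 0.5 and Cldn4, a claudin, lowest at -0.044. Over all genes 2.6% were over 0.5 with Grhl2 and the median was 0.001. Sall1 was most like Drosha, the nuclease of microRNA processing (0.853), Usp54 (0.852) and Card10 (0.840), and Pax8 was most like Tmem232 (0.861), Pabpc4 (0.814) and Mrps10 (0.804).

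The members stand among 42 other kidney transcription factors read from the files, of which 40 were tested. The highest of these were Elf3 and Tfcp2l1 at mean levels of 167 and 129 TPM, 19 of the 42 reached 10 TPM, and 3 lay under 1 TPM, among them the progenitor factor Six2. None of the 40 passed the adjusted threshold in any comparison. At an unadjusted edgeR p under 0.05 there were 0 for i.p. ASC, 7 higher and 4 lower for i.v. ASC, 5 higher and 3 lower for CM, and 2 lower for i.p. against i.v. ASC. Over all genes the shares were 3.89%, 8.81%, 6.6% and 2.18% in these comparisons. Their median log2 fold changes were -0.109, -0.089, -0.047 and -0.037, beside -0.014, -0.011, -0.003 and 0.009 over all genes. Without the 3 rats with the highest urothelial score, the medians for i.v. ASC and between the routes were -0.073 and 0.024, beside -0.001 and 0.017 over all genes. The smallest p-values for i.p. ASC belonged to Sox4 (log2 -0.26), Hnf4g (0.91) and Tfap2a (-0.21), each with an edgeR adjusted p of 0.771. For i.v. ASC they belonged to Elf5 (log2 1.82, edgeR adjusted p = 0.521), Grhl3 (2.48) and Maf (-0.52, both 0.523). The Elf5 and Grhl3 values were 0.06 and -0.75 without the 3 rats with the highest urothelial score, and Maf was -0.31. For CM they belonged to the Iroquois factors Irx1 (1.38), Irx2 (1.10) and Irx3 (0.79), each with an edgeR adjusted p of 0.711 and at 0.22, 0.25 and 0.29 with the podocyte score as a covariate. Between the ASC routes they belonged to Grhl3 (-2.27), Elf5 (-1.56) and Ehf (-0.50), each with an edgeR adjusted p of 1.0.

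Of 6 epithelial genes known to be controlled by Grhl2, none passed. All 6 had small values above 0 for i.v. ASC (log2 0.05 to 0.26, median 0.108). All 6 were below 0 for CM (-0.34 to -0.05, median -0.157) and for i.p. against i.v. ASC (-0.26 to -0.08, median -0.174). For i.p. ASC 4 of 6 were below 0 (median -0.051). Over all genes the medians were -0.011 for i.v. ASC, -0.003 for CM, 0.009 between the routes and -0.014 for i.p. ASC. The share of all genes on each side of 0 was not counted for these comparisons of all rats. Without the 3 rats with the highest urothelial score, 4 of 6 were above 0 for i.v. ASC (median 0.050) and 4 of 6 below 0 between the routes (median -0.049). Of 11 cystic kidney disease genes none passed either, with medians of -0.057, -0.121, 0.058 and 0.045 in the 4 comparisons, and of -0.165 for i.v. ASC and 0.122 between the routes without those 3 rats. With Sall1, 6 of these 11 had an r over 0.5 across rats and the median was 0.532, beside 8.15% and 0.011 over all genes. The proximal tubule markers had median log2 values of 0.444, 0.363 and 0.612 for i.p. ASC, i.v. ASC and CM, with 0 of 20 called, and the i.v. median was 0.012 without those 3 rats.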

How the data were processed

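The authors deposited 2 values per gene and rat for the left kidney RNA of 22 rats, sequenced on the BGISEQ-500 platform. The estimated counts that the authors deposited are per Entrez gene and not normalized, and the TPM values that the authors deposited are scaled by transcript length and sum to 959754 to 968550 per rat. The submitters' processing notes name Trim Galore 0.6.4, kallisto 0.4.6 and the build rn6. How reads shared by paralogs, overlapping or antisense genes were split is not given in the sources used here. Groups came from the sample labels, and rats of different groups are different animals.

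The estimated counts were rounded, since 14.1% were not whole. Symbols were matched by Entrez identifier to the RefSeq table of GRCr8, used for names only, for 17179 of 17334 genes. The test of differences was the quasi-likelihood F test of edgeR 4.0.16 (R 4.3.3) over 12867 genes left by filterByExpr, after TMM scaling, with the 4 groups in 1 fit and a prior count of 2 for log2 CPM. Benjamini-Hochberg adjustment and a threshold of 0.05 were used, and intervals are 1.96 SE. Scores are means of log2 CPM over a marker list and were compared by two-sided exact permutation tests, and correlations by two-sided tests with 100000 permutations. As alternatives, DESeq2 1.42.0 and RLE scaling were run, the filter was dropped or set to at least 10 counts in every rat, and the fit was limited to the groups compared. Further alternatives were limma-trend (limma 3.58.1) on log2(TPM + 1) and log2(TPM + 0.1), the proximal tubule score as a covariate, and each rat left out. The covariates label number and podocyte score, and the omission of the 3 rats with the highest urothelial score, were added after the data were seen.

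The members, lists and marker genes were chosen with earlier results of these data known. Named are the members, Hnf4g and Slc34a1, list members past the threshold, the 3 kidney transcription factors with the smallest p per comparison, the 3 genes most like each member, and Umod, Aqp2, Nphs1, Upk1b and Havcr1 as checks. Elf3, Tfcp2l1, Six2, Lrp2, Slc5a2, Slc5a12, Wnk1, Calb1, Slc12a3, Cldn10, Cldn4 and Esrp1 were named after their values were seen. Some genes are not reported here. The tests across genes were tested on simulated data. The other marker lists, for thick limb, collecting duct, tubular injury, podocyte, endothelium, urothelium, fibroblast, macrophage, lymphocyte, adrenal and red blood cell genes, gave 0 called genes in edgeR in each comparison, and between 0 and 9 genes each at an unadjusted p under 0.05. By that measure, 1 of 15 collecting duct markers was higher and 8 were lower for CM. Of 12 thick limb and distal tubule markers, 2 were higher and 5 lower for CM, beside 6.6% of all genes. All 6 urothelial markers were higher for i.v. ASC and lower for i.p. against i.v. ASC, beside 8.81% and 2.18% of all genes.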

Additional observations from a re-analysis of the deposited data

Results flagged for a closer look

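Sall1 was flagged by its directions. On the log2 CPM scale all 6 i.p. ASC rats lay below the untreated mean of 6.90 and all 4 CM rats lay above it, with group means of 6.67 and 6.97 and a difference of -0.3 between i.p. ASC and CM rats. This difference was not tested, and the share of all genes with the same pattern was not counted. On the TPM scale 0 of 6 i.p. rats and 1 of 4 CM rats lay above the untreated mean of 31.3 TPM, so the CM direction did not hold there. In 36 groups of values, from 9 genes in 4 groups, no rat stood apart from the others of its group, where chance would give about 1 in 20.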

How the results depend on the processing

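No paired analysis was possible because the rats of the groups are different animals whose labels share no replicate numbers. None of the 7 listed members passed the threshold in any of the settings run. Of 294 member values under 11 alternatives other than leaving out 1 rat, 268 kept their direction and 26 reversed. None of these values passed the threshold of the adjusted p. Counts of called genes moved with DESeq2 to 28 (i.v. ASC), 4 (CM), 24 (i.p. against i.v. ASC) and 44 (4 groups together), and to 1 for CM with only the 2 groups in the fit. The score pairs that passed numbered 10 as deviations from group means, against 5. On log2(TPM + 1) the pairs Hnf4a with Pax8 (r = 0.299), Pax2 with tubular injury (-0.553) and Hnf4a with podocyte (-0.519) no longer passed. On log2(TPM + 1) and log2(TPM + 0.1), reversed values were Grhl2 i.p. ASC -0.04 and -0.05, Pax2 i.v. ASC -0.10 and -0.10, Tfap2b i.v. ASC -0.03 and -0.04, Pax8 CM -0.06 and -0.06, and Grhl2 CM -0.05 and -0.06. With the proximal tubule score, Pax8 CM was -0.03 and Hnf4a between routes -0.12, and with the label number Pax8 CM was -0.03. With the podocyte score, Hnf4a i.v. ASC was -0.15, Pax2 i.v. -0.20, Tfap2b i.v. -0.06, Grhl3 i.v. -0.13, Pax2 CM -0.07, Pax8 CM -0.12, Grhl2 CM -0.07 and Pax2 between routes 0.09. Without the 3 rats with the highest urothelial score, i.v. ASC values were -0.33 (Pax2), -0.12 (Tfap2b), -0.03 (Grhl2) and -0.75 (Grhl3), with 0.09 for Hnf4a in place of 0.58, and those between routes 0.55 (Hnf4a), 0.33 (Pax2), 0.05 (Tfap2b), 0.10 (Grhl2), 0.97 (Grhl3), 0.22 (Elf5) and 0.31 (Ehf). Leaving out 1 rat gave 0 to 14 called genes for i.v. ASC (14 without i.v. rat 6, 11 without i.v. rat 2), 0 to 13 between routes (13 without i.v. rat 2 or 6, 5 without i.v. rat 4) and 0 to 18 over the 4 groups (0 without i.v. rat 3, 7 without i.v. rat 1, 18 without i.v. rat 6). Member values that reversed ran from -0.05 to 0.05 (Pax2 i.p. ASC), -0.08 to 0.01 (Pax8 i.p.), -0.11 to 0.15 (Pax2 i.v.), -0.03 to 0.16 (Tfap2b i.v.), -0.06 to 0.08 (Pax8 CM) and -0.14 to 0.11 (Grhl2 CM). Between routes they ran from -0.26 to 0.38 (Hnf4a), -0.16 to 0.09 (Pax2), -0.03 to 0.08 (Pax8) and -0.03 to 0.14 (Sall1). The cause of these changes was not tested. Groups of 4 to 6 rats limit the precision, as the SE of 0.39 for Hnf4a shows.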
